A study of Mus musculus with 6 samples.

Results

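The genes described here encode secreted acute-phase and complement proteins: haptoglobin (Hp), serum amyloid A (Saa3), lipocalin 2 (Lcn2), pentraxin 3 (Ptx3), kininogen (Kng1), the complement components C4b and C3, the complement protease C1s1 and the C1 inhibitor Serping1. They were listed by name, because Hp, Ptx3 and Kng1 differed strongly between the genotypes of this study, and each was followed through its probe set with exactly 1 gene symbol. A value was obtained for 8 of the 9 listed genes, out of 19935 genes in all, and C3 was not analysed here. Since the genotype difference itself led to the choice, the differences of the 8 genes are given as descriptions with their errors and without p-values, and counts over the 8 genes stand beside the share of all genes as a description.

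Acute-phase proteins are plasma and tissue proteins whose production changes with inflammation. The liver makes most of them, and stromal cells, adipocytes and osteoblasts make some locally, under the control of interleukin-6 family cytokines, NF-kB and C/EBP transcription factors. In the classical complement pathway, C1q recruits the proteases C1r and C1s, which cleave C4 and C2, and C1 inhibitor blocks these proteases as well as the enzymes that release bradykinin from kininogen.

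The study hybridised 6 Affymetrix arrays, each with 1 sample: 4 of the wild-type (WT) group and 2 of the Y1KO group, whose mice lack the neuropeptide Y receptor Y1. All mice were male and, in both genotypes, carried a green fluorescent protein driven by 3.6 kb of the rat alpha1(I)-collagen promoter. Marrow stromal cells of femora and tibias were grown for 7 days and the fluorescent osteoblastic cells were sorted, so the samples are cultured stromal cells selected by one promoter. Neither the age of the mice, nor the Y1 allele, nor whether an array holds 1 animal is stated in the labels used here, so p-values rest on the differences from array to array, part of which may be technical. Array medians lay between 5.3 and 5.37 on the log2 scale and no arrays were identical. Across genes, the correlation of arrays ran from 0.9762 to 0.9875 between genotypes and from 0.9911 to 0.9961 within them (genes are no independent replicates). The targeted gene, Npy1r, averaged 2.94 ± 0.15 across WT arrays (SD, n = 4) and 2.86 ± 0.04 across Y1KO arrays (SD, n = 2), too dim to check the labels. All 8 measured osteoblast markers lay above the median of all genes in both genotypes, and Col1a1 averaged 13.42 ± 0.05 across WT arrays (SD, n = 4) and 13.60 ± 0.03 across Y1KO arrays (SD, n = 2).

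Upstream sequences are shown for the members that the RefSeq promoter table of the mouse build GRCm38.p6 holds, because they place genes that were lower in Y1KO (Ptx3, C1s1 and the kininogen paralog Kng2) beside genes near the bottom of the array range (Lcn2 and Saa3). Of the 8 measured members, 4 had an entry. Each line gives the 250 bases before the transcription start, 5′ to 3′ on the gene's strand, using the most upstream start of a gene, and capitals mark matches to the motifs searched.
Ptx3 (chr3:66219637-66219886, plus strand): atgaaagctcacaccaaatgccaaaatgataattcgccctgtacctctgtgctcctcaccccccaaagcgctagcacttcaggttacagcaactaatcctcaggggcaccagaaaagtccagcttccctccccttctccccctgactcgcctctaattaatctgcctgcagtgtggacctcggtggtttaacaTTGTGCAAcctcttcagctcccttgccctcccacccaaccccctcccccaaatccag
C1s1 (chr6:124542360-124542609, minus strand): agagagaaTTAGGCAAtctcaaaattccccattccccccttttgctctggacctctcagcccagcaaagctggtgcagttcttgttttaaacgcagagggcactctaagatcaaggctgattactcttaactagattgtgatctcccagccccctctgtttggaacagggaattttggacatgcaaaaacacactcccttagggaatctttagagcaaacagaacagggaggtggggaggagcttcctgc
Kng2 (chr16:23029102-23029351, minus strand): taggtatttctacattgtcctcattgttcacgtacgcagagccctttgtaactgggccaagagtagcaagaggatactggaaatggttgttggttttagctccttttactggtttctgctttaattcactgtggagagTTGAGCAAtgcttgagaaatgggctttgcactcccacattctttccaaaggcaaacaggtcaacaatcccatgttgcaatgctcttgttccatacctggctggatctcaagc
Lcn2 (chr2:32387740-32387989, minus strand): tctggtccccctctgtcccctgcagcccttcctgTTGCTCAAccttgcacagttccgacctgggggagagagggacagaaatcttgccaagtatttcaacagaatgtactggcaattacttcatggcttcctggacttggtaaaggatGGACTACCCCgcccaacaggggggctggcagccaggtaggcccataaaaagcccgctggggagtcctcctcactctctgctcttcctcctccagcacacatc
Saa3 (chr7:46715677-46715926, minus strand): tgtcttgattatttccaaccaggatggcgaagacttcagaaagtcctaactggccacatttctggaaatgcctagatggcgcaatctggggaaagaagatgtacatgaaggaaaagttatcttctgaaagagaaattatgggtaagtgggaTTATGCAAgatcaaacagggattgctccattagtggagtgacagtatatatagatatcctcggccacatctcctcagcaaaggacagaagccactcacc
The search covered both strands for a C/EBP motif (TTGCNNAA), an NF-kB motif (GGG, any 5 bases, then CC), a STAT motif (TTCNNNGAA) and the TATA motif (TATAAA), and no matches of different motifs overlapped in these windows. Each of the 5 windows held 1 C/EBP match, beginning 57 bases before the start in Ptx3, 242 in C1s1, 112 in Kng2, 216 in Lcn2 and 99 in Saa3. Over 32851 upstream windows of the same length, 9.56% held this motif. Those windows count every listed start of a gene, not only the most upstream one. The NF-kB motif had 1 match, in Lcn2, 102 bases before the start, and 45.8% of all windows held it. STAT and TATA letters had 0 matches in the 5 windows, against 7.02% and 12.4% of all windows. These are matches of letters in short windows and do not show that a factor binds there.

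Among the acute-phase genes, haptoglobin was lower in both Y1KO arrays, while Lcn2 and Saa3 stayed near the bottom of the range. Hp, which encodes the plasma protein that captures free haemoglobin, read 11.05, 10.96, 11.22 and 10.96 on the log2 scale in the WT arrays (here and below in the order of replicates 1 to 4), and 8.49 and 8.28 in the Y1KO arrays (replicates 1 and 2). The WT values lay within 0.27 of one another, and both Y1KO values lay at least 2.46 below every WT value. The difference, Y1KO minus WT, was -2.66 (SE 0.11, 95% interval -2.92 to -2.41), or 6.34-fold lower. In a bulk sample, fewer cells of a type and less RNA per cell cannot be told apart. Hp stood at percentile 99.1 of all genes in WT and 86.5 in Y1KO, above the dim part of the range in both groups.

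Lcn2, a secreted carrier of iron-binding siderophores that osteoblasts can release as a hormone, read 4.30, 4.26, 4.31 and 4.31 in WT and 4.38 and 4.44 in Y1KO. The Y1KO values were both above the WT values, by at least 0.0711, and the difference was 0.12 (SE 0.08, 95% interval -0.07 to 0.30). Saa3, an extrahepatic serum amyloid A, read 3.32, 3.27, 3.37 and 3.14 in WT and 3.43 and 3.32 in Y1KO. Here the groups overlapped, with a difference of 0.10 (SE 0.10, 95% interval -0.12 to 0.32). Lcn2 and Saa3 lay at percentiles 28.2 and 13.6 of all genes in WT, where an array understates differences. The liver paralogs Saa1 and Saa2 were dimmer still, at 2.34 ± 0.14 and 2.96 ± 0.11 in WT (SD, n = 4), with differences of 0.11 and 0.06 (limma adjusted p = 0.624 and 0.787).

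Ptx3 and Kng1 were also far lower in Y1KO, but with a wider spread between arrays than Hp. Ptx3, a long pentraxin that binds microbes, matrix and C1q, read 9.17, 10.02, 9.07 and 9.25 in WT and 6.89 and 6.08 in Y1KO. WT replicate 2 was the highest and the Y1KO arrays differed from each other by 0.81, yet the gap between the groups was 2.18. The difference was -2.89 (SE 0.29, 95% interval -3.55 to -2.23), or 7.43-fold lower.

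Kng1, the precursor of bradykinin and an inhibitor of cysteine proteases, read 9.64, 9.47, 10.31 and 9.19 in WT and 6.66 and 6.70 in Y1KO. The WT arrays spanned 1.12 and the Y1KO arrays 0.04, with 2.5 between the lowest WT and the highest Y1KO value. The difference was -2.98 (SE 0.26, 95% interval -3.56 to -2.39), or 7.87-fold lower. Mice have a second kininogen gene, Kng2, close in sequence to Kng1, and how far the probe sets of the pair share signal was not tested. Kng2 read 8.08, 8.13, 8.64 and 7.68 in WT and 5.61 and 5.34 in Y1KO, and fell by 2.66 (SE 0.22, limma adjusted p = 0.000371). WT replicate 3 was the highest and WT replicate 4 the lowest array for both kininogen genes.

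In the classical complement pathway, the protease C1s1 and its inhibitor Serping1 were both lower in Y1KO, by over 1 on the log2 scale, and C4b differed by less. C1s1, the serine protease that cleaves C4 and C2, read 6.05, 6.04, 6.88 and 5.79 in WT and 4.998 and 4.89 in Y1KO. WT replicate 3 stood above the other arrays and the groups were 0.794 apart. The difference was -1.25 (SE 0.26, 95% interval -1.83 to -0.67), or 2.37-fold lower. Serping1, the C1 inhibitor, read 11.04, 10.88, 11.30 and 10.996 in WT and 9.93 and 9.87 in Y1KO. Every Y1KO value lay at least 0.95 below the WT values, and the difference was -1.15 (SE 0.12, 95% interval -1.43 to -0.88), or 2.22-fold lower. In Y1KO, Serping1 still stood at percentile 96.5 of all genes.

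C4b, the complement component cleaved by C1s, read 5.48, 5.28, 5.98 and 5.15 in WT and 5.14 and 4.91 in Y1KO. Y1KO replicate 1 lay 0.0135 below WT replicate 4, so the groups only just failed to overlap, and the interval of the difference, -0.45 (SE 0.21, 95% interval -0.92 to 0.02), reached past 0. C4b, C1s1 and the C1r gene each have near-identical copies whose probe sets may share signal. The copy C4a, listed by RefSeq as a transcribed pseudogene, differed by -0.19 (SE 0.11, limma adjusted p = 0.351). C1s2, the copy of C1s1, fell by 0.93 (SE 0.19, limma adjusted p = 0.0146), from 4.45 ± 0.34 (SD, n = 4) to 3.52 ± 0.07 (SD, n = 2). C1ra, which encodes the partner protease C1r, was -0.35 different (SE 0.19, limma adjusted p = 0.334), and its groups overlapped. Without Y1KO replicate 1 or 2, C1s2 was at -0.98 and -0.88 (limma adjusted p = 0.0874 and 0.143).

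**Figure D1:**
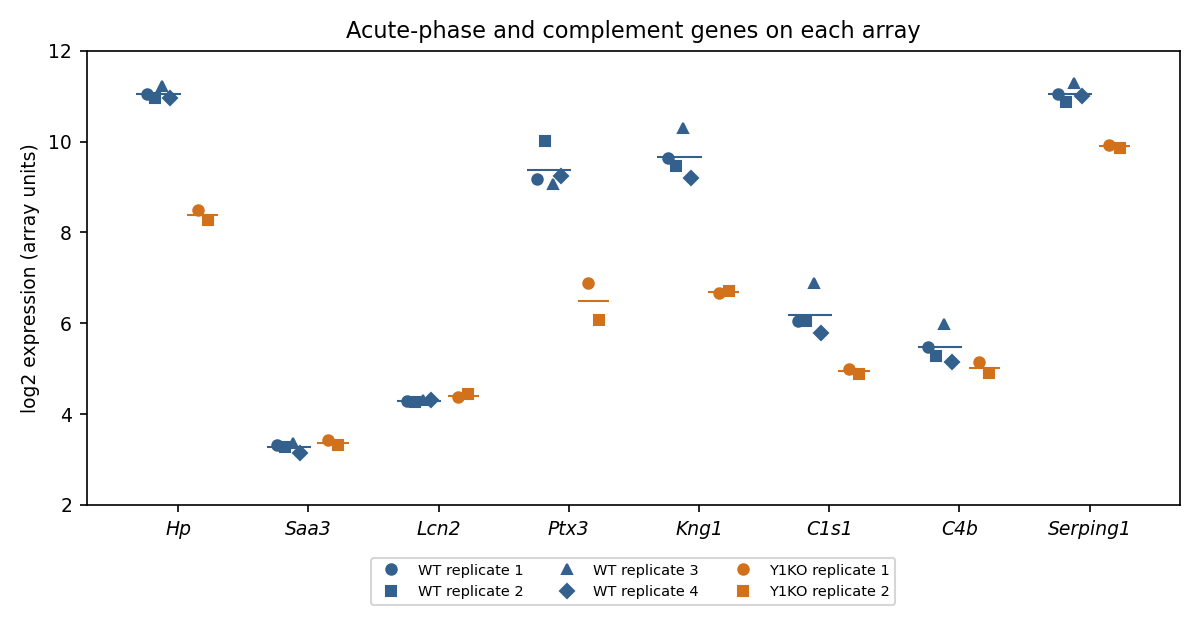
Log2 expression of the 8 measured genes on each array, with WT arrays in blue, Y1KO arrays in orange, marker shapes for replicate numbers and horizontal lines for group means. Hp, Ptx3 and Kng1 show the widest gaps between groups (2.46, 2.18 and 2.5), C4b nearly overlaps, and Lcn2 and Saa3 lie near the bottom of the range.

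As a count, 6 of the 8 genes had a lower mean in Y1KO and 2 a higher one, and the median difference was -1.20, beside 0.01 over all genes. In 6 genes both Y1KO arrays lay below every WT array, where 17.3% of all genes did so, and in 1 gene, Lcn2, they lay above, as in 17.5% of all genes. In the limma fit over all genes, with Benjamini-Hochberg adjustment and a threshold of 0.05, 5 of the 8 lay past the threshold on the lower side (6.64% of all genes) and 0 on the higher side (6.1% of all genes). Nothing is read from these counts, because the contrast chose the list. Leaving out the Y1KO arrays in turn put the difference of C1s1 at -1.30 and -1.19. Of the calls over all genes, 47.9% were higher in Y1KO, and 60.5% when arrays were centred on the median of the 19935 genes. The number of higher and lower calls was 1217 and 1324, and fell to 372 and 572 without Y1KO replicate 1 and to 152 and 335 without Y1KO replicate 2. With 1 Y1KO array left, the WT arrays alone give the spread and the lone array is assumed to vary like them, so a lost call there can come with an equally large difference.

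The 4 WT arrays show how these genes vary without any difference of genotype. WT replicate 3 held the highest WT value in 7 of the 8 genes, where 21.6% of all genes had their WT maximum on that array. Among genes called lower in Y1KO this share was 36.9%. For Lcn2, WT replicate 3 was barely the highest, at 4.314 beside 4.311 in WT replicate 4. Relative to each gene's WT mean, WT replicate 3 was higher by 0.69 for C1s1, 0.66 for Kng1, 0.50 for C4b, 0.24 for Serping1 and 0.17 for Hp, and by 0.09 and 0.02 for Saa3 and Lcn2. WT replicate 4 held the lowest WT value in 4 of the genes, at -0.46 for Kng1, -0.40 for C1s1, -0.32 for C4b and -0.14 for Saa3. Ptx3 did not share this order, with 0.64 in WT replicate 2 and -0.31 in WT replicate 3.

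The size of this spread also differed between the genes. Ranked by WT SD among all genes, Kng1 and C1s1 lay at percentile 98.5, Ptx3 at 98.1 and C4b at 96.8. Serping1 lay at percentile 74.0, Hp at 49.9, Saa3 at 34.4 and Lcn2 at 1.17. Of the 1324 genes called lower in Y1KO, 36.9% had their WT maximum in replicate 3 and 46.7% in replicate 2, so the WT maximum was often on these arrays among lower genes. The mean of the adipocyte marker list was 5.46, 5.72, 5.70 and 5.53 in the WT arrays. Its genes peaked on different arrays (Adipoq at 6.51 in replicate 3, Fabp4 at 8.03 in replicate 2 and Plin1 at 5.70 in replicate 4). The osteoblast, macrophage, endothelial and smooth muscle lists had their highest WT mean in replicate 3, at 11.41, 5.50, 4.76 and 8.76. The granulocyte and erythroid lists were highest in replicate 1, at 3.88 and 5.66, and the lymphocyte and hepatocyte lists in replicate 4, at 3.90 and 4.26.

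**Figure D2:**
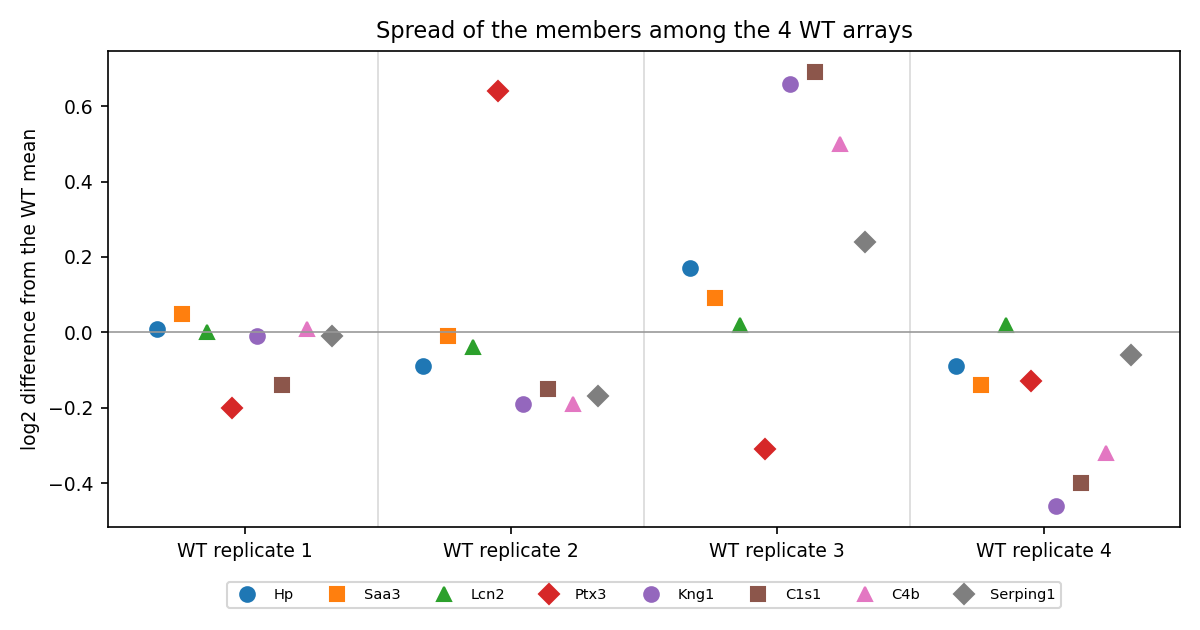
Difference of each gene from its own WT mean (log2) in the 4 WT arrays, 1 symbol per gene. In WT replicate 3, C1s1, Kng1 and C4b lie at 0.69, 0.66 and 0.50, while Ptx3 lies at -0.31 there and at 0.64 in WT replicate 2.

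The genes closest in profile to Hp, Ptx3 and Kng1 were found by the root mean square difference of log2 deviations over the 6 arrays, which is dominated by the size of the genotype difference. Nearest to Hp were Igfbp4, an IGF-binding protein gene, at 0.131, the dipeptidase gene Dpep1 at 0.142 and Tmem86a at 0.171. Nearest to Ptx3 were the vasopressin receptor gene Avpr1a at 0.169, the Wnt enhancer gene Rspo2 at 0.26 and the cytochrome P450 gene Cyp1b1 at 0.364. Kng1 had its paralog Kng2 as nearest gene at 0.201, then Akr1c18 at 0.205 and the retinoic acid-making enzyme gene Aldh1a2 at 0.216. Among the members themselves, Lcn2 and Saa3 were closest at 0.0871, both being nearly flat, followed by C1s1 and Serping1 at 0.24 and Hp and Kng1 at 0.302.

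The arrays of the nearest genes are shown to make this likeness, which chose them, visible. Avpr1a read 7.81, 8.48, 7.32 and 7.78 in WT and 5.38 and 4.88 in Y1KO, with WT replicate 2 highest and WT replicate 3 lowest, as in Ptx3. Akr1c18 read 7.02, 6.78, 7.26 and 6.45 in WT and 4.30 and 4.07 in Y1KO, with replicate 3 highest and replicate 4 lowest, as in Kng1.

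Of the other complement genes, 47 were measured, and 4 rose and 4 fell by limma with Benjamini-Hochberg adjustment over all genes. That is 8.51% in each direction, beside the 6.1% and 6.64% of all genes, and the median was -0.03 beside 0.01 over all genes. In WT, 37 of the 47 lay below the median level of all genes, so the shares are no like comparison. Clu, clusterin, a secreted chaperone that restrains the terminal complex, fell by 1.62 (SE 0.30, limma adjusted p = 0.00867), from 7.65 ± 0.56 (SD, n = 4) to 6.03 ± 0.05 (SD, n = 2). Cd93, a receptor once taken for a C1q receptor, fell by 1.70 (limma adjusted p = 0.0181), and C1s2 was the third. Colec12, a scavenger collectin gene named after its values were seen, fell by 0.60 (limma adjusted p = 0.00376). Factor B, Cfb, was at -0.41 and the lectin pathway protease gene Masp1 at -0.78 without passing (limma adjusted p = 0.225 and 0.187).

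The complement genes that rose include genes of macrophages. C1qc, a chain of C1q, read 5.62, 5.75, 5.68 and 5.58 in WT and 6.13 and 7.06 in Y1KO, and rose by 0.94 (SE 0.21, limma adjusted p = 0.0221). C1qa, named after its values were seen, rose by 0.58 (limma adjusted p = 0.0176), and the third chain C1qb was at 0.44 (limma adjusted p = 0.113). C3ar1, the receptor for the C3a fragment, rose by 0.85 (limma adjusted p = 0.0187), and Cd55, a membrane inhibitor of complement, by 0.87 (limma adjusted p = 0.00844) from a level at percentile 6.49 of all genes in WT. In the same arrays 8 of 14 macrophage markers rose (57.1%, beside 6.1% of all genes) and 0 fell by limma (beside 6.64%). At an unadjusted p under 0.05 the counts were also 8 and 0. The summed log2 level of these markers was 74.1 to 77.1 in WT and 79.6 to 85.0 in Y1KO. Of the Y1KO arrays, replicate 2 had the larger C1qc value and the larger macrophage sum. The part of macrophages in these rises was not tested.

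Leaving out Y1KO replicate 1 ended some complement calls and leaving out Y1KO replicate 2 ended all, with differences of similar size for Clu and C1s2. Without Y1KO replicate 1, 3 genes were called higher and 1 lower, and without Y1KO replicate 2, 0 and 0. Clu was then at -1.59 and -1.66 (limma adjusted p = 0.0785 and 0.0884), Cd93 at -1.32 and -2.08 (limma adjusted p = 0.173 and 0.0673) and C3ar1 at 1.01 and 0.69 (limma adjusted p = 0.0614 and 0.202). C1qc and Cd55 passed without replicate 1, at 1.41 and 1.20 (limma adjusted p = 0.005 and 0.00528), and not without replicate 2, at 0.47 and 0.55 (limma adjusted p = 0.0983 and 0.0564), and C1qc did not pass without WT replicate 4.

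Among other acute-phase plasma protein genes, Il1rn and Cp had the largest decreases. Of 44 measured, 5 fell (11.4%, beside 6.64% of all genes) and 2 rose (4.55%, beside 6.1%), with a median of 0.01, and 32 of the 44 lay below the median level of all genes in WT. Il1rn, the interleukin-1 receptor antagonist, read 9.19, 9.56, 9.57 and 9.04 in WT and 5.50 and 5.24 in Y1KO, and fell by 3.97 (SE 0.17, limma adjusted p = 1.87e-05), a larger difference than in any of the 8 members. Cp, the copper-carrying ferroxidase ceruloplasmin, fell by 1.74 (limma adjusted p = 0.00216), from 9.18 ± 0.39 (SD, n = 4) to 7.44 ± 0.18 (SD, n = 2). The iron carrier gene Trf fell by 1.44 (limma adjusted p = 0.00593), Lbp, which encodes the lipopolysaccharide-binding protein, by 1.43 (limma adjusted p = 0.0166) and the inter-alpha-trypsin inhibitor chain gene Itih2 by 0.96 (limma adjusted p = 0.0198). Cp, Trf and Lbp were each highest in WT replicate 3, at 9.76, 8.21 and 7.86.

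The metallothionein gene Mt1 rose by 0.59 (limma adjusted p = 0.0459) and Serpinf1, a secreted antiangiogenic serpin gene named after its values were seen, by 0.52 (limma adjusted p = 0.00849). Haemopexin, Hpx, the haem carrier that works beside haptoglobin, was at 0.09 (SE 0.09, limma adjusted p = 0.618). Il1rn and Cp kept their calls without either Y1KO array, whereas Trf, Lbp and Itih2 lost theirs without each of them (limma adjusted p = 0.0504 to 0.172), with differences of -1.27 and -1.61, -1.32 and -1.54, and -0.80 and -1.11. Mt1 lost its call without each WT array and without Y1KO replicate 2. The counts were 2 lower and 2 higher without Y1KO replicate 1, and 2 and 0 without Y1KO replicate 2.

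In the kinin system, the kininogens stood alone at large differences. Of 21 other measured genes, 1 fell, Kng2, and 1 rose, Cpe, a carboxypeptidase gene, by 0.76 (SE 0.20, limma adjusted p = 0.0376). That is 4.76% in each direction, beside 6.64% of all genes called lower and 6.1% called higher, with a median of 0.06. In WT, 14 of the 21 lay below the median level of all genes. Cpe lost its call without WT replicate 1, 2 or 4 and without either Y1KO array (0.96 and 0.57, limma adjusted p = 0.0797 and 0.322, for the latter). The bradykinin receptor genes Bdkrb1 and Bdkrb2 read 5.09 ± 0.10 and 5.17 ± 0.10 in WT (SD, n = 4), and differed by -0.02 (95% interval -0.24 to 0.19) and 0.20 (95% interval -0.02 to 0.42), neither passing the test (limma adjusted p = 0.927 and 0.254). The sign of Bdkrb1 turned when arrays were centred on a median.

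Among receptors of the members' products, C3ar1 was the one gene that rose. Of 14 measured, 1 rose (7.14%, near the 6.1% of all genes) and 0 fell by limma (beside 6.64% of all genes). At an unadjusted p under 0.05 the counts were 5 and 0. The share of all genes at that limit was not computed, here or for the marker lists, so nothing is read from such counts. The median difference was 0.16, and 10 of them lay below the median level of all genes in WT. Cd163, the scavenger receptor for haptoglobin bound to haemoglobin, differed by 0.18 (95% interval -0.04 to 0.40, limma adjusted p = 0.324) and Slc22a17, a lipocalin 2 receptor gene, by 0.32 (95% interval 0.07 to 0.57, limma adjusted p = 0.103). The latter passed when arrays were centred on the median of the 19935 genes, at 0.38 (limma adjusted p = 0.0449), as did the integrin gene Itgax at 0.41 (limma adjusted p = 0.038). Scarb1, a lipoprotein receptor that also takes up serum amyloid A, was at 0.40 (limma adjusted p = 0.12). Lrp1 and Lrp2, large endocytic receptors, were at -0.07 and 0.04, Itgb2, Mc4r and Ager at 0.39, 0.14 and 0.05, and Cr2 and Itgam within 0.02 of 0, with signs that turned when arrays were centred on a median.

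Among genes of the signals that drive acute-phase transcription, Cebpa had the largest decrease. Of 51 measured, 8 fell (15.7%, beside 6.64% of all genes) and 1 rose (1.96%, beside 6.1%), with a median of -0.08 and no test of the list. Only 11 of the 51 lay below the median level of all genes in WT. The list was thus brighter than all genes, and its shares are no like comparison with theirs. Cebpa, a C/EBP factor of liver and fat, read 7.84, 7.82, 8.38 and 7.58 in WT and 6.47 and 6.50 in Y1KO, and fell by 1.42 (SE 0.19, limma adjusted p = 0.00254). It was also called without Y1KO replicate 1 or 2 (limma adjusted p = 0.0328 and 0.0443). Its WT values had the order of Kng1, with replicate 3 highest and replicate 4 lowest. The related Cebpb and Cebpd, induced in inflammation, were at -0.26 and -0.13 (limma adjusted p = 0.291 and 0.615).

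Osmr, the oncostatin M receptor gene, fell by 0.73 (limma adjusted p = 0.0287), the interleukin-17 receptor gene Il17ra by 0.67 (limma adjusted p = 0.0205), the kinase gene Jak1 by 0.59 (limma adjusted p = 0.00434) and the NF-kB inhibitor gene Nfkbie by 0.56 (limma adjusted p = 0.0123). Ikbkg, a subunit of the kinase that activates NF-kB, rose by 0.88 (limma adjusted p = 0.0108). The transducer gene Stat3 was at 0.10 (limma adjusted p = 0.708) and its feedback inhibitor Socs3 at -0.22 (limma adjusted p = 0.328). Il6 and Il1b stood low in WT, at 2.91 ± 0.12 and 3.48 ± 0.15 (SD, n = 4), and neither passed (limma adjusted p = 0.997 and 0.727). Osmr, Il17ra, Jak1, Nfkbie and Ikbkg lost their calls without either Y1KO array, with limma adjusted p from 0.051 to 0.183. Their differences hardly moved, to -0.72 and -0.73 for Osmr, -0.67 and -0.68 for Il17ra, -0.56 and -0.62 for Jak1, -0.52 and -0.61 for Nfkbie and 0.93 and 0.83 for Ikbkg. The list then had 1 lower and 0 higher without replicate 1, and 2 and 0 without replicate 2. Over the 4 lists, 18 genes outside the members fell, of which 9 had their WT maximum in replicate 3, 6 in replicate 2 and 3 in replicate 1.

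**Figure D3:**
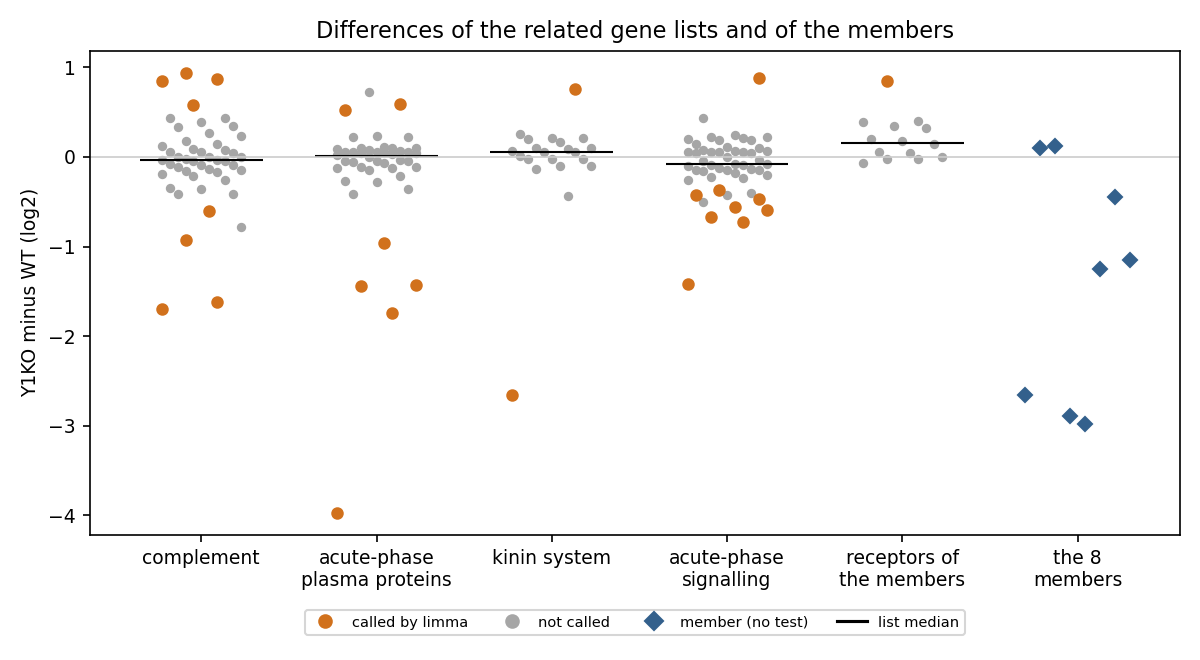
Y1KO minus WT (log2) for each measured gene of the complement, acute-phase, kinin, signalling and receptor lists without the members, with called genes in orange, others in grey, list medians as black lines and the 8 members as blue diamonds. The list medians lie between -0.08 and 0.16, while individual genes such as Il1rn (-3.97), Kng2 (-2.66) and 5 of the members lie far below.

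Markers of other cells were read beside these results. Hp, Lbp and complement genes are also made by adipocytes and hepatocytes, and Lcn2 by granulocytes. Of 11 adipocyte genes, 4 fell (36.4%, beside 6.64% of all genes) and 1 rose (9.09%, beside 6.1%). Lpl, lipoprotein lipase, was at -2.71, the fatty acid carrier gene Fabp4 at -1.87 and the adipogenic regulator Pparg at -1.45 (limma adjusted p = 0.000171, 0.0057 and 0.00229). The summed log2 level of the 11 adipocyte genes was 60 to 62.9 in WT and 54.6 to 55.3 in Y1KO, without overlap. Plin4 was the other gene that fell, by 0.67 (limma adjusted p = 0.0218), and Cd36 was the one that rose, by 0.94 (limma adjusted p = 0.00336). Adipoq was at -0.93 without passing (limma adjusted p = 0.266). The fat droplet genes Plin1 and Cidec read 5.30 ± 0.27 and 5.15 ± 0.15 in WT (SD, n = 4), below the median of all genes. They differed by -0.03 and -0.02 (limma adjusted p = 0.95 and 0.945). Smooth muscle and pericyte genes fell as well, 9 of 12 with 1 higher (75.0% and 8.33%, beside 6.64% and 6.1% of all genes). Only 1 of the 12 lay below the median level of all genes in WT. The sum of this list was 101.3 to 105.1 in WT and 91.9 to 92.8 in Y1KO. The osteoblast markers also parted the groups, with a sum of 82.7 to 91.3 in WT and 94.0 to 94.9 in Y1KO. Of these 8 genes 1 rose (12.5%, beside 6.1% of all genes), Ifitm5 by 1.66 (limma adjusted p = 0.0341), and 0 fell (beside 6.64%). At an unadjusted p under 0.05 the counts were 5 and 0. The median was 0.45, and Dmp1 and Phex were at 1.66 and 1.53 without passing. The part of these cell populations in the differences of Hp, Ptx3, Kng1, C1s1 and Serping1 was not tested.

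All 14 granulocyte genes and all 9 hepatocyte genes measured lay below the median of all genes in both genotypes, and 0 of each list were called by limma. At an unadjusted p under 0.05, 3 granulocyte genes were higher and 0 lower, and 0 hepatocyte genes differed. The granulocyte sum was 53.7 to 54.3 in WT and 54.2 to 55.3 in Y1KO, and the hepatocyte sum 37.1 to 38.4 and 37.7 to 38.1. Endothelial, lymphocyte and erythroid lists also had 0 limma calls among 10, 8 and 5 genes, and 0 at an unadjusted p under 0.05.

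**Figure D4:**
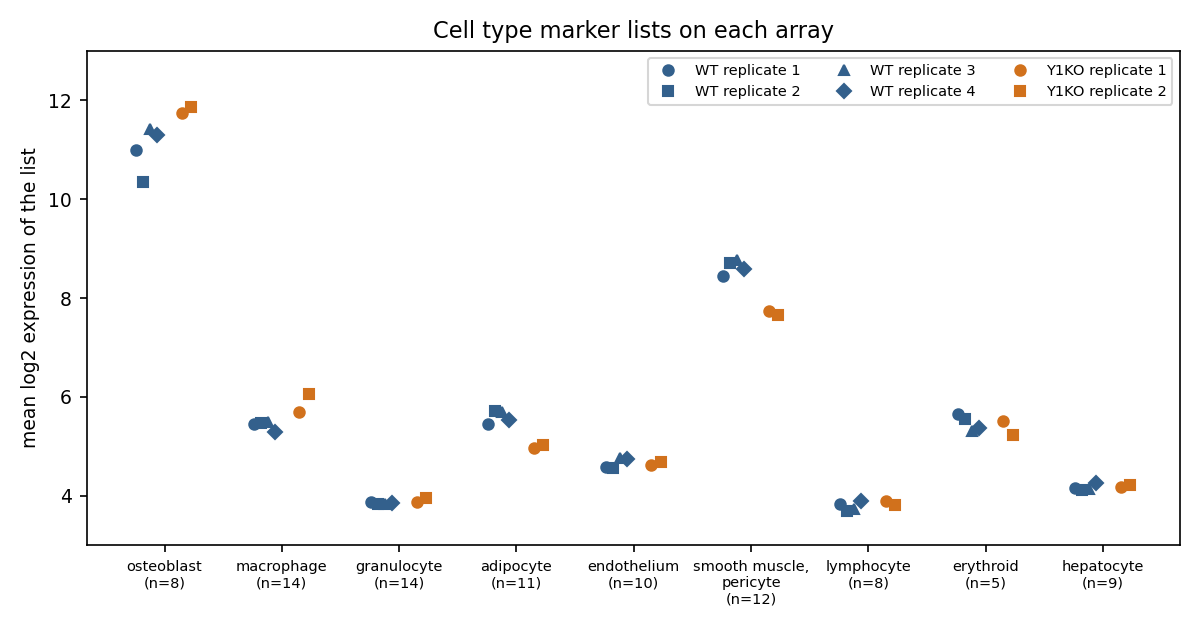
Mean log2 expression of each cell type marker list on each array, WT in blue and Y1KO in orange, with the number of measured genes under each name. The adipocyte and smooth muscle lists are lower in both Y1KO arrays, the macrophage and osteoblast lists are higher, and the granulocyte list (3.84 to 3.95) and hepatocyte list (4.12 to 4.26) lie low in every array.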

How the data were processed

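Per the labels, total RNA was labelled with biotin for whole-transcript arrays. For each of 28815 probe sets the authors deposited a log2 expression value per array. The submitters' processing notes name RMA and limma without versions or settings, and the probes' build is not stated in the sources used here. Sorted values of the arrays differed by at most 0.338, so the deposited log2 values were already on nearly one distribution, and they were used as given, unfiltered. With 4 and 2 arrays, their number limits the precision.

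Gene names came from the platform's annotation, which can be old: 21780 had 1 symbol, 1605 several and 5430 were not listed. Of the first, 21689 matched the RefSeq gene table by identifier. The probe set of highest mean stood for a gene, leaving 19935 genes. Y1KO was compared with WT by limma 3.58.1 (R 4.3.3, lmFit and eBayes, genotype alone, two-sided), adjusted by Benjamini-Hochberg over all genes, and tested on simulated data. Rose and fell are used for genes with an adjusted p under 0.05. The members and lists were chosen with earlier results of these data known. Named genes were the members, their paralogs and receptors, the 6 called genes of largest difference per related list, and the 3 nearest profiles of Hp, Ptx3 and Kng1, unless marked otherwise. Npy1r and Col1a1 served as checks. Genes of the marker lists named in the text were chosen after their values were seen, as were uncalled list genes.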

Additional observations from a re-analysis of the deposited data

Results flagged for a closer look

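Among 55 genes checked, 1 stood out by a lone WT array: C4a, the copy of C4b, read 4.45 in WT replicate 3 against 4.18, 4.19 and 4.19 in the other WT arrays. Chance flags about 1 in 20 groups, and 5.75% of all genes passed the same limit. C4b was also highest in WT replicate 3, at 5.98.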

How the results depend on the processing

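The differences of the 8 members kept their sign under every alternative that held them. Hp ran from -2.77 to -2.55, Ptx3 from -3.30 to -2.49, Kng1 from -3.13 to -2.76, C1s1 from -1.38 to -1.02, Serping1 from -1.21 to -1.06, C4b from -0.56 to -0.28, Lcn2 from 0.09 to 0.18 and Saa3 from 0.04 to 0.16. Lcn2 and Saa3 were absent with the filter at the 40th percentile, and C4b and C1s1 also at the 60th. With these filters 2 and 0 complement genes were called higher, and at the 60th 2 lower, with fewer genes tested, and 2 kinin genes were called higher. The acute-phase list had 1 higher call with quantile normalization, and the kinin list 0 with trend and robust options, where Cpe and Cd93 lost their calls. Leaving out 1 array gave 152 to 1172 higher and 335 to 1289 lower genes, 0 to 5 higher and 0 to 5 lower complement genes, 0 to 2 and 2 to 6 acute-phase genes, 0 to 1 and 1 to 2 kinin genes, and 0 to 2 and 1 to 8 signalling genes. With the replicate number as a block, the fit called 925 genes higher and 1256 lower, and 1 acute-phase gene higher. Same-numbered arrays correlated at 0.013 and -0.204 in their deviations, which shows no pairing by number. With 2 Y1KO arrays, the deviations of the 2 mirror each other, so this check is weak and cannot exclude a pairing. Arrays centred on their medians turned Cr2 to 0, Itgam to 0.02 and Bdkrb1 to 0. Centring on the median of the 19935 genes, a setting chosen after seeing the data, gave 0.04, 0.06 and 0.04. It shifted the median difference of all genes to 0.07. Without 1 array Cr2 ran from -0.06 to 0.02, Itgam from -0.13 to 0.12, Bdkrb1 from -0.07 to 0.02 and Lrp2 from -0.01 to 0.09. The causes were not tested.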
